A study of Mus musculus with 6 samples.

Results

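The interferon regulatory factors are transcription factors that share a DNA-binding domain and switch interferon genes and interferon-responsive genes on or off. Transcripts of 8 members, Irf1 to Irf5 and Irf7 to Irf9, were followed in mouse microglia that had been cultured with neutrophils with or without Cd177, a surface protein of a neutrophil subset. The members were found by symbol among 55335 gene identifiers, and all 8 were matched. Of these, 7 had a mean of at least 1 FPKM (fragments mapped to a transcript, scaled to its length and to the depth of the library) and were tested, while Irf4 lay under that limit.

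The microglia were primary cells with an intact Cd177 gene in both arms, grown from the brains of C57BL/6 newborn mice and shaken off mixed glial cultures on day 14. Neutrophils were sorted magnetically from spinal cord lesions of adult male mice, 3 days after a contusion injury. Donors were either Cd177 WT or lacked Cd177 in all cells (KO), and direct co-culture lasted 24 h. Microglia were then recovered by flow sorting as Ly6G- cells, with 3 libraries in the WT arm and 3 in the KO arm. The sources do not state whether replicates were separate cultures or had separate neutrophil donors, so p-values measure only the spread between these libraries, which may be technical. Microglia cultured without neutrophils were not analysed here.

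In resting cells Irf3 is made constantly and waits in the cytoplasm, whereas Irf7 is itself induced by interferon and amplifies the response. Irf9 is part of ISGF3, the complex that carries the type I interferon signal to DNA. Irf1 and Irf2 bind shared sites as activator and repressor. Irf5 acts downstream of MyD88 on inflammatory cytokine genes, Irf8 is a lineage factor of microglia, and Irf4 is best known from lymphocytes and alternatively activated macrophages.

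The libraries were checked before the members were compared. Depth was estimated at 15.7 to 19.1 M fragments per library from coding genes with 1 transcript. The most common low value of FPKM times length was assumed to be 1 fragment. Only 32.3% to 41.3% of low values lay within 0.05 of a whole fragment, so counts could not be recovered. Libraries correlated across genes at 0.988 to 0.989 inside an arm and at 0.957 to 0.959 between arms (Pearson's r on log2(FPKM + 1), where genes are not independent replicates). Mitochondrial transcripts took 11.1% to 11.3% of summed FPKM with WT neutrophils, compared with 14.3% to 14.6% with KO neutrophils, and their part in the results was not tested. Of 12 microglia markers, 5 reached a mean of 1 FPKM, Csf1r, Trem2 and Cx3cr1 among them. Csf1r and Trem2 were higher and Cx3cr1 was lower in every KO library than in every WT library. Sall1, C1qa and Fcrls had 0 in every library and P2ry12 had at most 0.148 FPKM. Cd177 itself had 0.113 to 0.477 FPKM in the WT arm and 0.0217 to 0.109 FPKM in the KO arm. These cells carry no knockout of their own, so Cd177 gives no firm check of the neutrophil genotype.

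Of the 7 tested members, 2 differed between the arms, Irf7 and Irf9, and both fell with KO neutrophils. Irf1, Irf2, Irf3, Irf5 and Irf8 did not pass the test, which was limma on log2(FPKM + 1) with an adjusted p under 0.05. Over all 11395 genes tested, 43.3% passed in either direction, and the members' 2 of 7 lies below that share. Without the filter on low values 3 of 8 members were called, beside 17.9% of all genes. That base is unlike the members, since it adds genes under 1 FPKM, while 7 of the 8 members had a mean of at least 1 FPKM. With a minimum mean of 5 FPKM 1 of 3 was called, against 51.0% of all genes. Of the calls over all genes 43.4% were lower, or 54.9% when each library was rescaled to a common sum. In the downward direction 18.8% of all genes passed, and 2.02% fell by more than 2-fold, as Irf7 alone did among the members. The groups did not overlap for Irf1, Irf3, Irf7 and Irf9, against 55.8% of all genes tested. The median log2 change of the members was 0.07, and that of all genes tested was 0.02. The members' median was -0.040 without WT replicate 1, -0.033 without KO replicate 2, 0.0040 without WT replicate 3 and -0.29 with a minimum mean of 5 FPKM, so its sign is not settled.

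**Figure D1:**
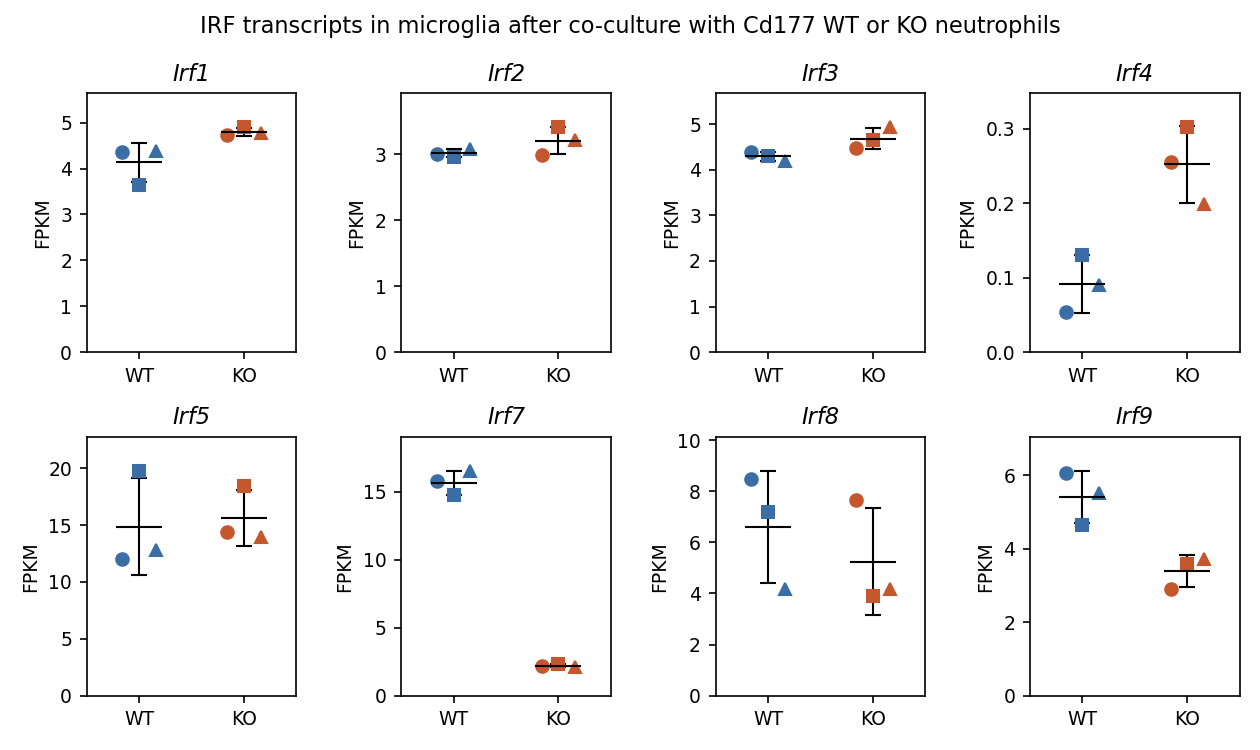
FPKM of the 8 IRF transcripts in each library (circle, square and triangle for replicates 1, 2 and 3), with the arm mean as a long bar and the SD as whiskers (n = 3 each). The mean of Irf7 was 15.7 against 2.20 FPKM and that of Irf9 5.41 against 3.40 FPKM, and Irf5 and Irf8 were spread widely inside both arms.

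Irf7, the inducible amplifier of type I interferon production, changed most among the members. The gene lies on the minus strand at chr7:141262706-141266481 (GRCm38, GENCODE M21). Its level was 15.7, 14.7 and 16.5 FPKM in WT replicates 1 to 3. In the KO replicates it was 2.19, 2.31 and 2.09 FPKM. Every KO library thus lay far below every WT library, and the SD was 5.60% of the mean in the WT arm and 5.05% in the KO arm. The WT mean was 7.13 times the KO mean. The log2 change was -2.38 (SE 0.06, 95% interval -2.51 to -2.25, limma adjusted p = 9.33e-07), and an exact permutation test (two-sided) gave p = 0.1, which is the lowest value 3 against 3 libraries can reach. Exons of Phrf1 on the opposite strand cover 45 bases of Irf7, which is 1.19% of its exon length, and Phrf1 had 3.34 to 5.47 FPKM in the 6 libraries. In bulk RNA, fewer cells that make a transcript and less transcript per cell cannot be told apart.

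Irf9, the DNA-binding subunit of ISGF3, fell less. The gene lies on the plus strand at chr14:55603571-55610030. It had 6.06, 4.65 and 5.51 FPKM with WT neutrophils and 2.90, 3.57 and 3.73 FPKM with KO neutrophils. The arms did not overlap, although WT replicate 2 and KO replicate 3 came within 1 FPKM of each other. The WT mean was 1.59 times the KO mean, with a log2 change of -0.54 (SE 0.11, 95% interval -0.80 to -0.28, limma adjusted p = 0.00856; exact permutation p = 0.1). Leaving out 1 library at a time kept the limma adjusted p between 0.00728 and 0.0307. Its exons share 123 bases on the same strand with Rnf31, whose own level was 2.06 to 3.47 FPKM, so reads there could be split either way.

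**Figure D2:**
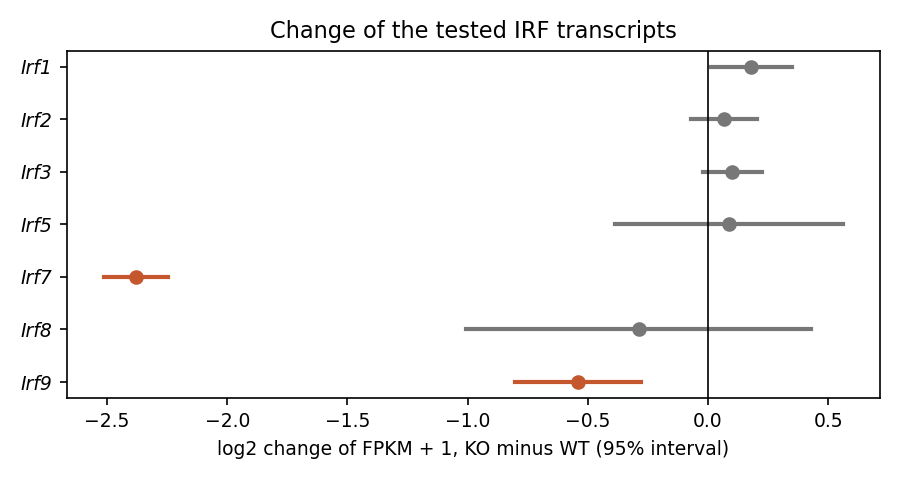
Fitted log2 change of FPKM + 1 (KO minus WT, points) with its 95% interval (lines) for the 7 tested IRF members, coloured where the limma adjusted p was under 0.05. Irf7 at -2.38 and Irf9 at -0.54 lie clear of 0, and the intervals of Irf5 and Irf8 are the widest of the 7.

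Promoter windows of the members were read from RefSeq (GRCm38.p6), 250 bases before to 50 bases after each start site, which gave 11 windows for the 8 genes. They were searched on both strands for the core of the interferon-stimulated response element (GAAA, any 2 bases, GAAA), the gamma-activated site bound by STAT dimers (TTCNNNGAA) and a kappa B site bound by NF-kB (GGG, any 2 bases, TTTCC). Of 32851 mouse windows of the same length, 3.44% held the first, 8.3% the second and 1.63% the third. Shown are the Irf7 window and the first of 2 Irf9 windows, for the members that fell, then the first of 2 Irf1 windows and the Irf2 window, which hold matches, and capitals mark the matches.
Irf7, chr7:141266375-141266674, minus strand: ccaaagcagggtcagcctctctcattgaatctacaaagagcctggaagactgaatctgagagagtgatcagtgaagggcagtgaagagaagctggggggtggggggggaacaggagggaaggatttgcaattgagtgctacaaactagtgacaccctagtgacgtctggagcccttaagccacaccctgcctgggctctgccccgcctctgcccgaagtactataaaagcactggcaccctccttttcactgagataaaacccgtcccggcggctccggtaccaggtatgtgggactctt
Irf9, chr14:55603735-55604034, plus strand: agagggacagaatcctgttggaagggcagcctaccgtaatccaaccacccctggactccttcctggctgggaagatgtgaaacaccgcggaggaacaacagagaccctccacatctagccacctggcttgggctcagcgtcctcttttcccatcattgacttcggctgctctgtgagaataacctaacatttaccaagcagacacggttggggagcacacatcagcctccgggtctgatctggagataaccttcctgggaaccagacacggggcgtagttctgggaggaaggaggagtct
Irf1, chr11:53769764-53770063, plus strand: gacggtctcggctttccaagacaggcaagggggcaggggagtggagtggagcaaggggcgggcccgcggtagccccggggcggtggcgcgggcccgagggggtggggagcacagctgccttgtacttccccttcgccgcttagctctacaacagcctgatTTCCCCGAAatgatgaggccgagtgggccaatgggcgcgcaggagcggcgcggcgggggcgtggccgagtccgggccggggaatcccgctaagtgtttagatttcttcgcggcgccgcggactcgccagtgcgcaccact
Irf2, chr8:46739495-46739794, plus strand: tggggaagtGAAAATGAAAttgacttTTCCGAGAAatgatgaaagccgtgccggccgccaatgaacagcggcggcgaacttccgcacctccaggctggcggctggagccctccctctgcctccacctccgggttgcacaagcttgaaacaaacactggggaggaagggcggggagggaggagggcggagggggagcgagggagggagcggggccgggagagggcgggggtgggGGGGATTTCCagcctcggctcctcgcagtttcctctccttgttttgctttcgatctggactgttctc

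Neither the Irf7 window nor either of the 2 Irf9 windows held a match, and the same was true of Irf3, Irf4 and Irf5. The first Irf1 window held a gamma-activated site from position -90 to -82 relative to the start site. The Irf2 window held a response element core from -241 to -232, a gamma-activated site from -224 to -216 and a kappa B site from -17 to -8. The first Irf8 window held gamma-activated sites from -171 to -163 and from -153 to -145, and no match overlapped another. These are matches of letters in short windows, and binding was not measured. Each search used a fixed pattern, so other forms of a site, such as a kappa B site with other bases, are not marked. A window without a mark may therefore still hold such a site.

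Irf3, the constitutive partner of Irf7, had 4.38, 4.30 and 4.19 FPKM in the WT arm and 4.47, 4.64 and 4.93 FPKM in the KO arm (chr7:44997648-45002848). The KO values were all above the WT values, but the log2 change of 0.10 did not pass (SE 0.05, 95% interval -0.02 to 0.22, limma adjusted p = 0.152). Within each library, the ratio of Irf7 to Irf3 FPKM was 3.59, 3.42 and 3.93 with WT neutrophils. It was 0.490, 0.498 and 0.424 with KO neutrophils. Irf7 thus stood above Irf3 in each WT library and below it in each KO library. The log2 ratio differed by -2.96 between the arms (exact permutation p = 0.1, adjusted over 3 ratios p = 0.3), and this does not depend on how a library is scaled. Exons of Bcl2l12 on the opposite strand cover 88 bases of Irf3, at 1.52 to 2.49 FPKM of their own.

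Irf1, an activator induced by interferon gamma and NF-kB, had 4.37, 3.65 and 4.38 FPKM with WT neutrophils (chr11:53770014-53778374). With KO neutrophils it had 4.73, 4.90 and 4.78 FPKM. The groups did not overlap, and WT replicate 2 was the lowest library. The log2 change of 0.18 had an unadjusted p of 0.0385 and did not pass after adjustment (SE 0.07, 95% interval 0.01 to 0.35, limma adjusted p = 0.0786). Its antagonist Irf2 (chr8:46739732-46847458) had 3.01, 2.96 and 3.08 FPKM against 3.00, 3.41 and 3.22 FPKM, which overlapped (log2 change 0.07, 95% interval -0.07 to 0.21, limma adjusted p = 0.382). The ratio of Irf1 to Irf2 was 1.45, 1.23 and 1.42 in the WT arm and 1.58, 1.43 and 1.48 in the KO arm. The arms overlapped, with a difference of 0.13 in the log2 ratio (exact permutation p = 0.2, adjusted p = 0.3).

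Irf5, which drives inflammatory cytokine genes, was the most abundant member in the KO arm and shared the top with Irf7 in the WT arm (chr6:29526625-29541871). Its level was 12.0, 19.8 and 12.8 FPKM in the WT libraries. The KO libraries had 14.4, 18.5 and 14.0 FPKM. In both arms replicate 2 stood well above the other two. No change passed (log2 change 0.09, SE 0.20, 95% interval -0.39 to 0.56, limma adjusted p = 0.745). Irf5 shares 411 bases, 14.2% of its exon length, with Tnpo3 on the opposite strand. Tnpo3 had 8.56, 10.7 and 8.36 FPKM in the WT arm and 11.4, 10.04 and 8.65 FPKM in the KO arm, and its part in the Irf5 values was not tested.

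Irf8, which with PU.1 maintains the microglial programme, lay at 8.46, 7.17 and 4.18 FPKM with WT neutrophils (chr8:120736358-120756694). With KO neutrophils it lay at 7.65, 3.91 and 4.17 FPKM. The 6 libraries fell near a high and a low level that were both present in each arm. The log2 change was -0.29 (SE 0.30, 95% interval -1.01 to 0.43, limma adjusted p = 0.470), so the interval holds both a 2-fold fall and a rise. Leaving out 1 library moved the change between -0.55 (without KO replicate 1; -0.54 without WT replicate 3) and -0.11 (without WT replicate 1), with values of -0.14 and -0.18 without KO replicate 2 or 3, and it passed in none of the 6 fits. The ratio of Irf9 to Irf8 overlapped between the arms as well (0.716, 0.649 and 1.32 against 0.379, 0.912 and 0.894, exact permutation p = 0.6).

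Irf5 and Irf8 varied more inside an arm than most genes of like level. Among 5639 genes with a mean of 4 to 20 FPKM, the SD within an arm had a median of 4.87% of the mean, and 90% of the values were under 14.1%. It was 33.3% and 39.9% for Irf8 in the WT and KO arm, and 28.7% and 15.95% for Irf5.

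Irf4 was close to the limit of detection (chr13:30749226-30766976). It had 0.0540, 0.131 and 0.0900 FPKM with WT neutrophils and 0.256, 0.302 and 0.199 FPKM with KO neutrophils. All KO values were above all WT values (exact permutation p = 0.1), but they rested on an estimated 4.38 to 27.3 fragments, against 0.0402 FPKM for 3 fragments. Irf4 did not enter the main test. Without the filter on low values, where 17.9% of 25195 genes were called, it was called too, with a log2 change of 0.20 on the log2(FPKM + 1) scale (limma adjusted p = 0.0308).

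The order of the members by FPKM, a level per length of transcript, differed between the arms. With WT neutrophils it was Irf7 (15.7 ± 0.876), Irf5 (14.9 ± 4.27), Irf8 (6.60 ± 2.20), Irf9 (5.41 ± 0.710), Irf3 (4.29 ± 0.0977), Irf1 (4.13 ± 0.418), Irf2 (3.02 ± 0.0620) and Irf4 (0.0917 ± 0.0385; SD, n = 3 each). Ranges of neighbours overlapped for Irf7 and Irf5, for Irf8 and Irf9, and for Irf3 and Irf1. With KO neutrophils the order was Irf5 (15.6 ± 2.49), Irf8 (5.24 ± 2.09), Irf1 (4.805 ± 0.0866), Irf3 (4.68 ± 0.234), Irf9 (3.40 ± 0.438), Irf2 (3.21 ± 0.208), Irf7 (2.20 ± 0.111) and Irf4 (0.252 ± 0.0518; SD, n = 3 each). There the ranges overlapped for Irf8 and Irf1, for Irf1 and Irf3, and for Irf9 and Irf2. Irf7 went from the top of the order to the place above Irf4.

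**Figure D3:**
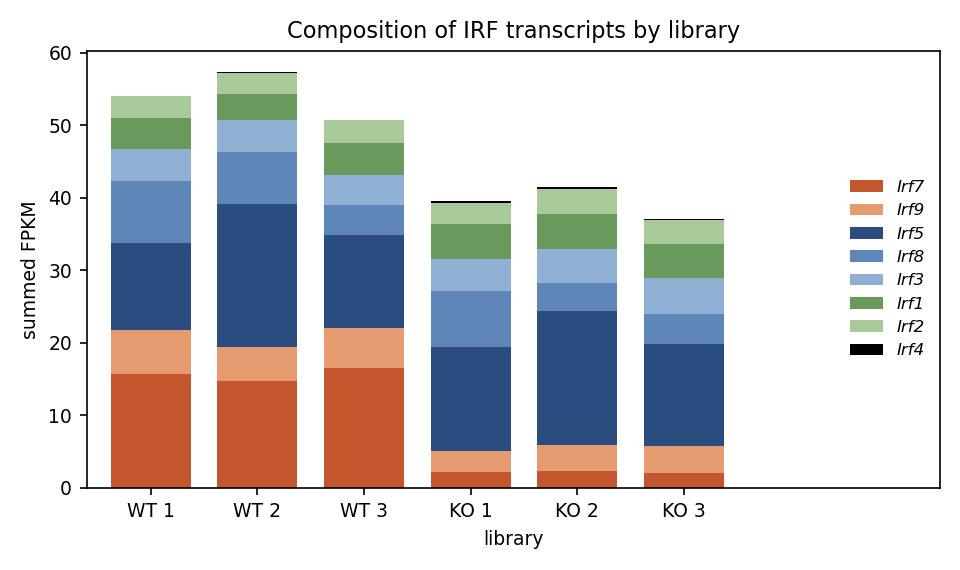
Summed FPKM of the 8 IRF transcripts in each library (bars), split by member. The sum was 50.7 to 57.4 FPKM in the WT libraries and 37.1 to 41.5 FPKM in the KO libraries, and the Irf7 segment accounts for most of the gap.

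Summed over the members, the family had 54.1 ± 3.31 FPKM in the WT arm and 39.4 ± 2.22 FPKM in the KO arm (SD, n = 3 each, exact permutation p = 0.1). Without Irf7 the sums were 38.4 ± 4.19 and 37.2 ± 2.11 FPKM, which overlapped (exact permutation p = 0.7). Irf7 held 29.1 ± 3.40% of the sum with WT and 5.58 ± 0.0528% with KO neutrophils. The share of Irf5 was 27.3 ± 6.38% and 39.5 ± 4.37% although its own level did not pass, since shares add up to a whole.

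The genes whose levels followed Irf7 most closely over the 6 libraries were taken by the smallest root mean square difference of centred log2(FPKM + 1). They were Il1b (0.0582), Ccl3 (0.0731), Slc15a3 (0.0839), Lix1 (0.0896) and Tarm1 (0.0917). Il1b encodes interleukin-1 beta and Ccl3 a macrophage chemokine. Slc15a3, an endolysosomal transporter, had 97.1, 96.0 and 99.9 FPKM in the WT libraries against 16.6, 16.2 and 15.5 FPKM in the KO libraries. The likeness is set mostly by the size of the fall between the arms on the log2(FPKM + 1) scale, and is a description of 6 libraries. Il1b, at 4.90, 4.45 and 4.82 FPKM against 0.0845, 0.0551 and 0.116 FPKM, is close to Irf7 only because the pseudocount of 1 shrinks changes of low values. Its ratio of arm means was 55.5, against 7.13 for Irf7, and with a pseudocount of 0.1 their log2 changes were -4.71 and -2.78. The KO values of Il1b are as low as those of Irf4, so the exact size of its ratio is not settled.

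Interferon transcripts, the upstream ligands, were then examined. Of 20 interferon genes, none was tested, and 19 were listed at 0 in all 6 libraries, Ifng among them. Ifnb1 was listed at 0.0837 FPKM in WT replicate 3 and at 0 in the other 5 libraries. Apart from that value, interferon transcripts were listed at 0 after 24 h of co-culture, as was the microglial marker C1qa, and whether such a 0 reflects low expression or the way FPKM was computed was not tested.

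Among receptors and their JAK and STAT partners, 10 of 11 genes were tested and 5 fell, with none higher (median log2 change -0.13). Over all genes tested, 43.3% were called and 18.8% were called lower. Ifnar2, a chain of the type I interferon receptor, fell from 16.6, 17.7 and 16.7 FPKM to 12.4, 12.3 and 13.3 FPKM (log2 change -0.40, limma adjusted p = 0.000648). Its partner chain Ifnar1 had 12.5, 11.7 and 9.92 FPKM against 9.24, 11.4 and 12.0 FPKM, which overlapped (limma adjusted p = 0.715). The kinase Jak2 fell to 4.74 ± 0.491 from 10.01 ± 0.213 FPKM (SD, n = 3 each, limma adjusted p = 0.000108). Tyk2, the kinase bound to Ifnar1, was 3.67 and 3.83 FPKM on average (limma adjusted p = 0.503).

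Stat2, a partner of Irf9 in ISGF3, did not pass the test. It had 2.72, 2.36 and 2.11 FPKM in the WT arm. It had 2.30, 2.095 and 1.85 FPKM in the KO arm, which overlapped (log2 change -0.14, SE 0.09, limma adjusted p = 0.272).

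Of 28 sensors, adaptors and kinases upstream of Irf3, Irf5 and Irf7, 25 were tested, 12 fell and 3 rose (median log2 change -0.23), where 18.8% of all genes were called lower and 24.5% higher. Of the 12, Dhx58 had a KO mean under 1 FPKM and passed the filter through the WT arm. Without the filter 10 of 28 fell and 3 rose, beside 8.13% lower and 9.75% higher over all genes. Cd14, the lipopolysaccharide co-receptor, fell from 474 ± 7.001 to 136 ± 1.66 FPKM, and the RNA sensor gene Ddx58 from 6.01 ± 0.122 to 1.55 ± 0.218 FPKM (SD, n = 3 each). Ikbke, an inducible kinase of Irf3 and Irf7, had 10.3, 10.2 and 10.04 FPKM in the WT libraries and fell to 4.48, 4.19 and 4.44 FPKM (log2 change -1.06, limma adjusted p = 7.38e-06). Tbk1, the constitutive kinase of the same factors, fell by 0.16 on the log2 scale (15.5 ± 0.295 and 13.7 ± 0.930 FPKM, limma adjusted p = 0.0445). That call was lost without the filter on low values (limma adjusted p = 0.0894), without the variance trend (0.0553) and in each of the 6 fits that left out 1 library (0.0521 to 0.113).

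The 3 genes that rose, named after their values were seen, were Mavs, the mitochondrial adaptor of RNA sensing (13.75 ± 0.610 and 17.2 ± 0.658 FPKM), Irak1 and Traf3. Irak1, a kinase of the MyD88 route, had 10.2 ± 0.317 and 12.5 ± 0.340 FPKM, and the adaptor Traf3 had 4.28 ± 0.315 and 5.76 ± 0.512 FPKM (SD, n = 3 each). Their limma adjusted p-values were 0.00244, 0.00245 and 0.0102. Cgas, the DNA sensor, had 9.67 ± 1.78 and 11.2 ± 1.76 FPKM and did not pass (limma adjusted p = 0.326). Tlr7 was high in replicate 1 of each arm, at 30.4, 12.8 and 12.7 FPKM against 42.4, 14.8 and 17.7 FPKM (limma adjusted p = 0.568, or 0.0173 with a replicate block).

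Partners and modulators of IRF proteins moved in both directions. Of 20 genes, 16 were tested, 6 fell and 5 rose (median log2 change -0.04), beside 18.8% and 24.5% of all genes. Spi1, which encodes PU.1, rose from 36.5, 34.95 and 34.5 FPKM to 46.1, 43.4 and 41.0 FPKM (log2 change 0.29, SE 0.05, limma adjusted p = 0.00365). Lyn, a kinase that restrains Irf5, fell from 25.8 ± 1.19 to 18.05 ± 0.266 FPKM (SD, n = 3 each). Socs3, a brake on cytokine receptors, fell by 1.73 on the log2 scale. Usp18, a brake on the type I interferon receptor, fell from 13.6, 13.4 and 13.4 FPKM to 5.96, 6.03 and 6.46 FPKM (limma adjusted p = 7.79e-06).

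Type I interferon-stimulated genes, the targets of ISGF3, were mostly lower with KO neutrophils. Of 38 genes, 28 were tested, of which 26 fell, 1 rose and 1 did not pass (median log2 change -1.03, against 0.02 over all genes, of which 18.8% fell). Of the 26, 6 had a KO mean under 1 FPKM and so passed the filter only through the WT arm, where they were higher. Without the filter 29 of 36 fell and 1 rose, with a median of -0.89, beside 8.13% lower and 9.75% higher over all genes. Isg15, a ubiquitin-like modifier, had 24.5, 27.4 and 23.9 FPKM in the WT libraries and 3.57, 3.85 and 4.74 FPKM in the KO libraries. Its log2 change of -2.38 (SE 0.10, limma adjusted p = 8.07e-06) was close to that of Irf7 on this scale, while the ratios of arm means were 6.24 and 7.13 and a pseudocount of 0.1 gave -2.62 and -2.78. Rnf213 fell from 29.96 ± 0.363 to 11.7 ± 0.431 FPKM, and the membrane tether gene Bst2 from 128 ± 2.56 to 53.1 ± 2.60 FPKM (SD, n = 3 each). Oas3, a sensor of double-stranded RNA, fell by 1.48 on the log2 scale.

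Ifit2 and Oasl1 were the weakest calls of that list, with limma adjusted p-values of 0.0238 and 0.0369. Without the filter on low values they reached 0.0642 and 0.0965, and with a replicate block 0.0600 and 0.0734. Ifit2 also lost its call without WT replicate 1 or 3 or KO replicate 1 or 3 (limma adjusted p 0.0646 to 0.0730), and Oasl1 without WT replicate 2 or 3 or KO replicate 2 or 3 (0.0598 to 0.104). Samhd1, a nucleotide hydrolase named after its values were seen, was the 1 gene that rose (15.3, 14.9 and 15.75 FPKM to 19.6, 19.05 and 18.95 FPKM, limma adjusted p = 0.000586). Ifi27l2a was the 1 that did not pass (18.7 ± 3.69 and 18.9 ± 1.41 FPKM, SD, n = 3 each, limma adjusted p = 0.880). The list shares Ifih1, Ddx58 and Dhx58 with the sensor list and Usp18 with the modulator list.

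**Figure D4:**
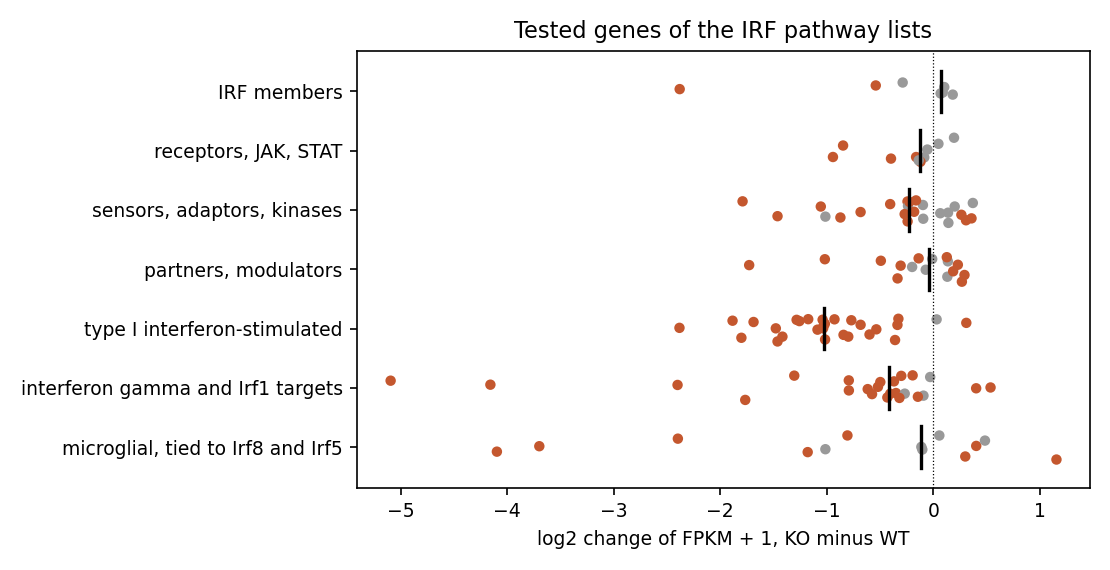
Fitted log2 change of FPKM + 1 (KO minus WT) of each tested gene in the IRF family and 6 pathway lists (points, coloured where the limma adjusted p was under 0.05), with the list median as a bar. The type I interferon-stimulated genes have a median of -1.03, while the IRF members have a median of 0.07, which turns to -0.040 without WT replicate 1 and to -0.033 without KO replicate 2.

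Tested interferon gamma and Irf1 targets were mostly lower as well, by a smaller median. Of 39 genes, 24 were tested, 19 fell, 2 rose and 3 did not pass (median log2 change -0.42), beside 18.8% lower and 24.5% higher over all genes. The other 15 were under the filter. Of these, 3 were listed at 0 in all 6 libraries (Cxcl9, Ciita and Gbp2b, named after their values were seen). The KO mean was under 1 FPKM for 5 of the 24, which passed the filter through the WT arm, and 4 of these fell. Without the filter 21 of 36 fell, none rose and the median was -0.36, where 8.13% of all genes fell and 9.75% rose. The members with the smallest p were Ptgs2, Nos2 and Cybb, which encode cyclooxygenase-2, inducible nitric oxide synthase and an NADPH oxidase subunit, and which NF-kB also controls. Cybb fell from 70.8, 68.8 and 71.2 FPKM to 20.6, 19.3 and 19.97 FPKM (log2 change -1.77, limma adjusted p = 3.51e-07). The genes that rose, named after their values were seen, were Psmb10, an immunoproteasome subunit (8.60 ± 0.962 and 11.7 ± 1.26 FPKM), and the cytokine Il15 (1.28 ± 0.272 and 2.31 ± 0.409 FPKM; SD, n = 3 each). Both calls were near the threshold (limma adjusted p = 0.0190 and 0.0172), and without the filter on low values they were 0.0512 and 0.0532. Psmb10 lost its call without WT replicate 1 or 3 or KO replicate 1 or 2 (limma adjusted p up to 0.0614), and Il15 without KO replicate 1 or 2 (up to 0.0571).

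Microglial genes tied to Irf8 and Irf5 were called in both directions. Of 17 genes, 13 were tested, 5 fell and 3 rose (median log2 change -0.11), beside 18.8% and 24.5% of all genes, and 2 of those that fell, Il1b and Il6, passed the filter through the WT arm. Without WT replicate 1 the median was -0.61 (6 lower and 3 higher), and with a minimum mean of 5 FPKM it was -0.025. P2rx4, an ATP-gated channel placed downstream of Irf8 and Irf5 in reactive spinal microglia, had 4.22, 4.10 and 4.16 FPKM in the WT arm. It had 3.88, 3.91 and 3.53 FPKM in the KO arm, all lower, and did not pass (log2 change -0.11, SE 0.05, limma adjusted p = 0.125). Those with the smallest p were the cytokines Tnf, Il6 and Il1b, and Tnf fell by 3.70 on the log2 scale (limma adjusted p = 6.05e-08). The genes that rose, named after their values were seen, were Trem2, a lipid-sensing receptor (12.04 ± 1.05 and 27.96 ± 0.364 FPKM), the lysosomal protein gene Cd68 (372 ± 7.48 and 491 ± 12.5 FPKM) and Csf1r, the receptor microglia need to survive (15.55 ± 0.294 and 19.4 ± 0.820 FPKM; SD, n = 3 each). Their limma adjusted p-values were 2.34e-05, 5.92e-05 and 0.00138.

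Markers of other cell types were then listed, with the same doubt about values of 0 as for the interferons. The 13 neutrophil markers had none with a mean of 1 FPKM, and 6 were listed at 0 in all libraries, Ly6g, S100a9, Mpo and Elane among them. Their summed level was 2.03 to 2.30 FPKM in the WT arm and 0.791 to 1.27 FPKM in the KO arm. The sum, which includes Cd177, was thus lower in the KO arm, as Irf7 was, and its part in the fall of Irf7 was not tested. S100a8, Camp, Csf3r and Cd177 were lower in every KO library than in every WT library, while Cxcr2, Mmp8 and Ngp overlapped, all at low values. Of 5 plasmacytoid dendritic cell markers, Ly6d and Klk1 were listed at 0, Ccr9 had at most 0.0375 FPKM, Tcf4 had 1.45 to 2.12 FPKM, and the sum of 128 to 133 FPKM (WT) and 53.0 to 57.5 FPKM (KO) was nearly all Bst2, which is also in the interferon list. B and plasma cell markers summed to at most 0.109 FPKM, T cell markers to at most 0.0386 FPKM and classical dendritic cell markers to 0.557 to 0.767 FPKM. Astrocyte and oligodendrocyte markers summed to 0.280 to 0.379 FPKM.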

How the data were processed

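The authors deposited 1 table of FPKM values with a column per library for 55335 identifiers, of which 99.67% had a symbol in GENCODE M21 (GRCm38). The submitters' processing notes name fastp 0.17.1, HISAT2 2.1.0, DESeq2 1.18.1 and R 3.4.3. The program that computed FPKM and the genome build are not given in the sources used here, and labels and methods name different kits and sequencers. The study tested counts, which were not used here.

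Genes averaging 1 FPKM or more were tested with limma 3.58.1 (R 4.3.3, lmFit and eBayes with a variance trend) on log2(FPKM + 1), KO minus WT, without covariates, with Benjamini-Hochberg adjustment over 11395 genes. This scale understates changes of low genes. The script was tested on simulated data. Single values had an exact two-sided permutation test. Groups and replicate numbers came from the sample titles.

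The 8 members and the gene lists were chosen with earlier results of these data known. All members were named, with at most 6 genes per list from the 3 smallest and 3 largest adjusted p, the 5 genes most like Irf7, and Ifnb1, Ifng, Stat2, Tbk1, Spi1, P2rx4, Isg15 and Usp18. A further IRF gene and some genes that the rule names are not reported here. Where a floor is given, it stands for 3 fragments of the longest coding transcript, and estimated fragments cover counting error only.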

Additional observations from a re-analysis of the deposited data

How the results depend on the processing

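Alternatives were a pseudocount of 0.1, no filter, a mean of at least 5 FPKM, a replicate block, leaving out each library, array weights, a fit without variance trend, and 3 scalings (quantile, median-centred, and TPM, which sets equal library sums). Irf7 and Irf9 stayed called wherever they were tested, at log2 changes of -2.78 to -2.35 and -0.65 to -0.46, and Irf1, Irf2, Irf3, Irf5 and Irf8 were called in none. Of 101 recomputed member changes, 99 kept direction and call. Irf5, never called, ran from -0.040 to 0.30 when 1 library was left out, turning negative without WT replicate 1 (-0.040) or KO replicate 2 (-0.033).

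With a mean of at least 5 FPKM fewer genes entered, which left 1 of 3 tested members called, since Irf9 was not tested, against 51.0% of 7383 genes, while 15 of 16 tested interferon-stimulated and 13 of 14 tested interferon gamma and Irf1 genes were called, compared with 27 of 28 and 21 of 24 at a mean of 1 FPKM. With no filter 3 of 8 members were called, beside 17.9% of 25195 genes, a base that adds genes under 1 FPKM. A pseudocount of 1, which by its construction shrinks ratios of low genes, moved the log2 ratio of Irf7 to Irf3 from -2.96 to -2.48. Over all genes 43.4% of calls were lower, and 54.9% on the TPM scale. There Ifi27l2a turned to -0.018. When 1 library was left out it ran from -0.11 to 0.16, Ifnar1 from -0.14 to 0.047 and Tlr7 from -0.076 to 0.77, none of them called. The median of the modulator list ran from -0.070 to -0.027 and that of the sensor list from -0.20 to -0.15 in those fits.

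Pairing by replicate number was not seen over all genes tested, where deviations of same-numbered libraries correlated at -0.0751, -0.0524 and -0.0052. These correlations cannot exclude a shared preparation, which the sources do not state. Irf5 was highest in replicate 2 of both arms and Tlr7 in replicate 1 of both arms. The replicate block left 4212 calls, against 4930. Irf7 (limma adjusted p = 0.000205) and Irf9 (0.0314) stayed called under the block, and among the genes named here Ifit2 and Oasl1 were lost and Tlr7 was gained (0.0173). Irf4 rests on few fragments, and why the interferon genes, like C1qa, were listed at 0 was not tested.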
